A study of Bos taurus with 4 samples.

Results

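Distal intergenic loci of 8-oxoguanine (8-oxoG) that lay more than 100 kb and at most 400 kb from the transcription start site (TSS) of their assigned gene were examined in bull sperm DNA. They were taken as all records of both OG-seq lists whose annotation was distal intergenic and whose absolute distance to the TSS was in that range. They numbered 120 of the 370 loci in C13 and 191 of the 614 loci in C14, which makes 311 of 984 loci in all.

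The sperm came from 2 Korean native striped bulls, both 6 years old, of which C13 was fertile and C14 was infertile. The study gives asthenoteratozoospermia, meaning poorly motile and misshapen sperm, as the condition of C14. The captured 8-oxoG DNA and the input DNA of each bull were sequenced as 1 library each, and the loci of each bull were called against the input of the same bull. Replicates are missing for both bulls, so the spread among animals or libraries is unknown for every difference given here.

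8-oxoG is the most common oxidised form of guanine in DNA, and it can pair with adenine during replication, so that a G-to-T change may follow. It is normally removed by base excision repair, which starts with the glycosylase OGG1. Sperm DNA is packed mostly by protamines in place of histones, and mature sperm have little capacity for repair. Distal intergenic DNA lies outside genes and their promoters, and the gene attached to such a locus by ChIPseeker is the one with the nearest TSS. That assignment is one of position and carries no information on regulation.

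The height of a locus is given as its pileup, the number of DNA fragments of the 8-oxoG library over the summit. Fold enrichment sets the pileup over the local background that the peak caller took from the input, after addition of 1 to each. The pileup was not scaled between the bulls and the depth of the libraries was not analysed here, so pileups of the bulls are set side by side only as deposited. The lowest local background in each list, which depends on the depth of the libraries, was 0.135 fragments in C13. In C14 it was 0.359 fragments, which is 2.66 times as high. Over the distal loci of 100 to 400 kb, the background ranged from 0.135 to 8.53 in C13 and from 0.359 to 36.1 in C14.

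These distal loci made up 32.4% of the C13 list (Wilson 95% confidence interval 27.9 to 37.4) and 31.1% of the C14 list (27.6 to 34.9). The difference between the shares was not past the threshold of Fisher's exact test (two-sided p = 0.672, adjusted p = 0.738 over 7 tests). Tests of this kind compare 2 lists of 1 bull each and cover counting error only, since loci are not replicates. The median distance to the TSS was 193331 bp for the C13 loci and 181407 bp for the C14 loci. The nearest C13 locus inside the range was 100317 bp upstream of CHRM3, a muscarinic acetylcholine receptor, and the nearest C14 locus was 102048 bp upstream of VIP, the gene of vasoactive intestinal peptide. Just outside it lay a C13 locus 99158 bp from MTTP and a C14 locus 98862 bp from NDUFAF4. At the far edge, the last C13 locus lay 355142 bp upstream of FERMT1, which encodes the integrin activator kindlin-1, and the last C14 locus lay 395988 bp upstream of ACO1, the cytosolic aconitase. The next loci beyond 400 kb were 418716 bp from DOK5 in C13 and 405048 bp from IRF4 in C14.

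Both sides of the TSS were represented about equally. In C13, 62 of 120 loci were upstream of the TSS (51.7%, 42.8 to 60.4), and in C14 106 of 191 were upstream (55.5%, 48.4 to 62.4), and the difference between the bulls was not past the threshold (Fisher's exact test, p = 0.559, adjusted p = 0.738). The distal loci beyond 400 kb were upstream in 53.8% in C13 and 61.9% in C14. The distal loci within 100 kb of a TSS were more often upstream, at 67.4% in C13 and 77.6% in C14. A distal intergenic locus cannot lie in a gene body by definition, which closes part of the downstream side near a TSS, so this difference by distance is given as a description and no test of it is read. The loci assigned to FAM207A and POFUT2 were all downstream. Without them, 62 of 99 loci in C13 and 106 of 153 in C14 were upstream, and the gap to the loci within 100 kb was −4.82 points in C13 and −8.33 points in C14 in place of −15.8 and −22.1.

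**Figure D1:**
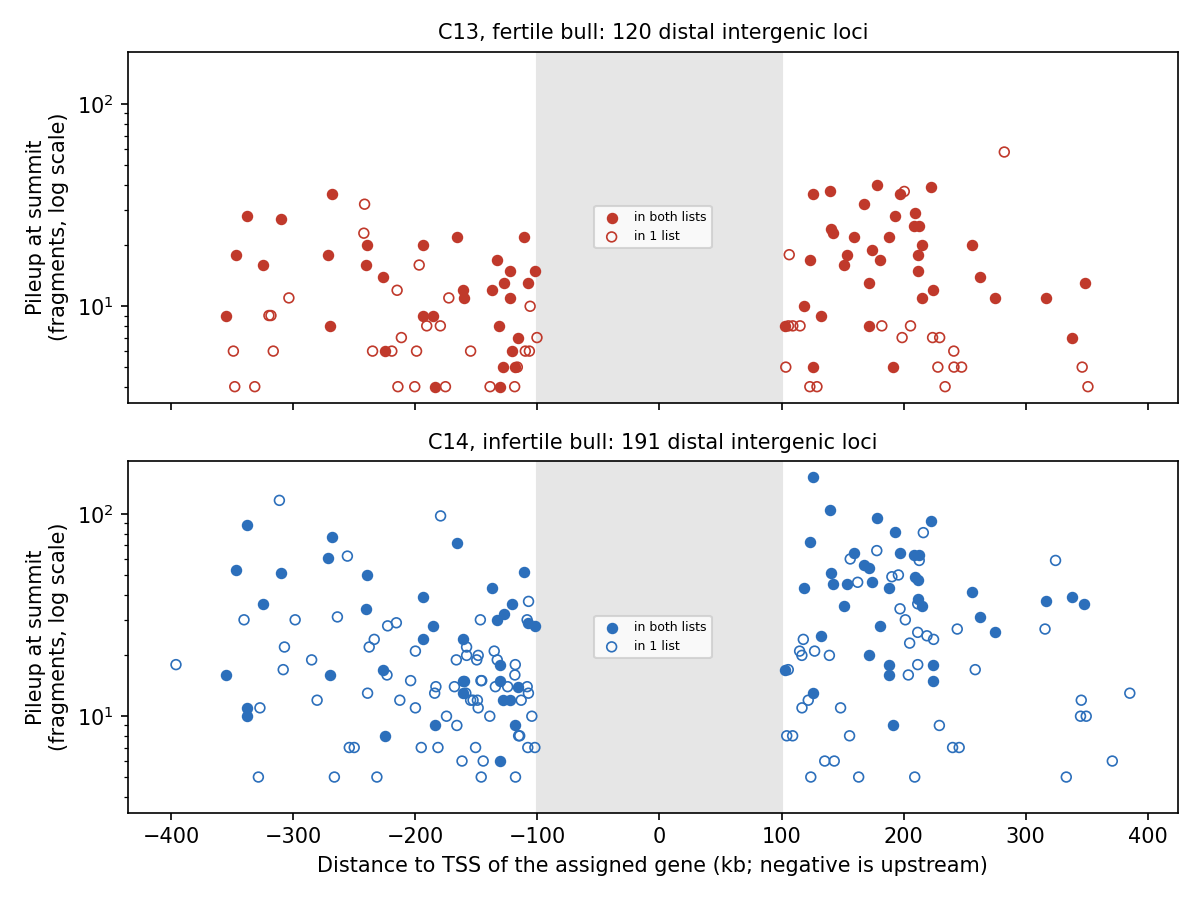
Pileup at the summit (fragments, log scale) of each distal locus against its distance to the TSS of the assigned gene (kb, negative is upstream), for C13 (120 loci, top) and C14 (191 loci, bottom). Filled points overlap a locus of the other list, open points do not, and the grey band marks the 100 kb on either side of the TSS that hold no locus by definition; the filled points tend to sit higher, with a median pileup of 15 against 6 in C13 and 35 against 14 in C14.

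The loci of 100 to 400 kb resembled the rest of their list in height. The pileup ranged from 4 to 58 in C13 with a median of 10.5, against a median of 9 over the other C13 loci. In C14 its median was 19 and its range 5 to 152, and the other C14 loci had a median of 18. The fold enrichment had a median of 7.82 in C13 (2.61 to 25.8) and of 7.41 in C14 (2.43 to 65.5). Over the other loci, its median was 7.32 in C13 and 6.37 in C14. The intervals were short, and their median width was 229 bp (C13) or 245 bp (C14), against 241 bp and 235 bp over the other loci. A q under 0.01 was reached by 114 of 120 C13 loci (against 93.0% of all C13 loci) and by 174 of 191 C14 loci (against 89.7% of all C14 loci). A −log10 q of at least 5 was reached by 70.8% of the C13 loci, against 70.0% of the whole list, and by 72.3% of the C14 loci, against 68.4%. As 23 C13 loci had a pileup of 5 or less, against 9 C14 loci, many C13 loci rested on few fragments.

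KCTD3, PROKR2 and FAM207A had a locus among the 5 highest fold enrichments in both bulls, while MTMR6 and VEGFC were among them only in C14 and NR3C1 only in C13. In C14, the locus with the highest value was on chromosome 16 from 19161489 to 19162446 (bosTau8), 337924 bp upstream of KCTD3, which carries a potassium channel tetramerization domain. Its pileup was 88, its fold enrichment was 65.5 and its −log10 q was 169. The C13 locus at the same place, from 19162182 to 19162432, had a pileup of 28 and a fold enrichment of 25.6, second in the C13 list of distal loci. The second C14 locus was 166082 bp upstream of PROKR2, the receptor of prokineticin, on chromosome 13 from 48081791 to 48082180. It had a pileup of 72 and a fold enrichment of 51.7, while the C13 locus there, from 48081935 to 48082126, had 22 and 20.3. The next in C14 was a FAM207A locus (pileup 105, fold enrichment 39.6), whose C13 counterpart (37 and 25.8) was first in C13. A locus 171580 bp downstream of the TSS of MTMR6, a phosphoinositide phosphatase, had a pileup of 54 and a fold enrichment of 27.9 in C14, and 13 and 12.1 in C13. A locus 120675 bp upstream of VEGFC, the growth factor of lymphatic vessels, had 36 and 27.2 in C14 but only 6 and 6.17 in C13. Among the 5 highest C13 loci was also one of NR3C1, with a pileup of 36 and a fold enrichment of 18.8. At each of these places, both bulls had a locus. This order rests on the 1 added to pileup and background. By the pileup divided by the background alone, KCTD3 and PROKR2 stayed the first and the next in both bulls, at 208 and 163 in C13 and 245 and 174 in C14. The FAM207A locus was then 16th in C13 and 6th in C14, and higher in C13 (77.8) than in C14 (62.5), as was MTMR6 (83.6 and 55.6). VEGFC stayed higher in C14 (100.3 against 44.5), and the NR3C1 locus fell to 37.2 in C13, behind loci of ITGB8, CD200 and BET1. The C13 values of KCTD3, PROKR2, VEGFC, ITGB8, CD200 and BET1 rest on the lowest background of the C13 list.

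High pileup and high fold enrichment did not always go together. The highest pileup of all, 152 in C14, lay 125975 bp downstream of the TSS of MELK, a kinase of dividing cells, over a local background of 9.77 fragments, so that the fold enrichment was 14.2. The C13 locus there had a pileup of 36 and a fold enrichment of 15.0. The highest pileup in C13, 58, lay on chromosome 28 from 1894471 to 1894866, 282441 bp downstream of the TSS of RHOU. Its local background was 8.53 and its fold enrichment was 6.19, and no C14 locus overlapped it.

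Overlap by position was then counted, with 1 bp taken as enough. In C13, 70 of 120 loci overlapped a C14 locus (58.3%, 49.4 to 66.8), against 57.0% of all C13 loci. In C14, 76 of 191 loci overlapped a C13 locus (39.8%, 33.1 to 46.9), against 36.6% of all C14 loci. Neither difference from the other loci of the same list was past the threshold (56.4% in C13, p = 0.738, adjusted p = 0.738, and 35.2% in C14, p = 0.279, adjusted p = 0.489, Fisher's exact test). All of the shared loci overlapped a distal locus of the same distance range in the other list. The direction of both differences turned without the FAM207A and POFUT2 loci, with the loci minus the other loci of their list then at −6.91 points in C13 and −0.584 points in C14.

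The shared loci were placed alike in both sperm DNAs. They formed 65 pairs of intervals, in which the summits were a median of 10 bp apart, and 35 pairs had summits within 10 bp. Both ends of the interval were within 10 bp of each other in 16 pairs and equal in 3 pairs. The C14 interval was the wider in 46 pairs and the narrower in 16. One of the equal pairs is the interval assigned to SEC23IP, a protein of ER exit sites, 132113 bp downstream of its TSS in both lists, with a pileup of 9 in C13 and 25 in C14.

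Counting each summit against each, the shared loci gave 84 pairs. The pileup was higher in C14 in 79 of 84 pairs, with a median ratio of 2.22 (0.357 to 6.75). The local background was higher in C14 in all 84 pairs, with a median ratio of 4.08 (1.49 to 17.9). In C13, 42 of 120 loci (35.0%) lay at the lowest background of their list, 0.135, and in C14 18 of 191 (9.42%) at 0.359. Each pair with a C13 background below 0.359 had to be higher in C14, so the 84 of 84 was partly fixed beforehand. The fold enrichment had a median ratio of 0.996 (0.292 to 4.41) and was higher in C14 in 41 pairs and in C13 in 43 pairs. As a description across loci that share 2 libraries each and partly the same interval, the Spearman rank correlation between the bulls was 0.676 for the pileup, 0.545 for the fold enrichment and 0.856 for the background (n = 84 pairs). The fold enrichment depends on the 1 added to a background that was often far below 1 in C13. With the pileup divided by the background alone, the median ratio of C14 to C13 was 0.455 (0.109 to 2.25) and the value was higher in C13 in 76 of 84 pairs, among them 33 of the 41 pairs with the higher fold enrichment in C14. Equal enrichment at shared places can therefore not be read from the fold ratio near 1. Nor can a higher enrichment in C13 be read from the ratio without the added 1, which divides many C13 pileups by the lowest background of 0.135.

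**Figure D2:**
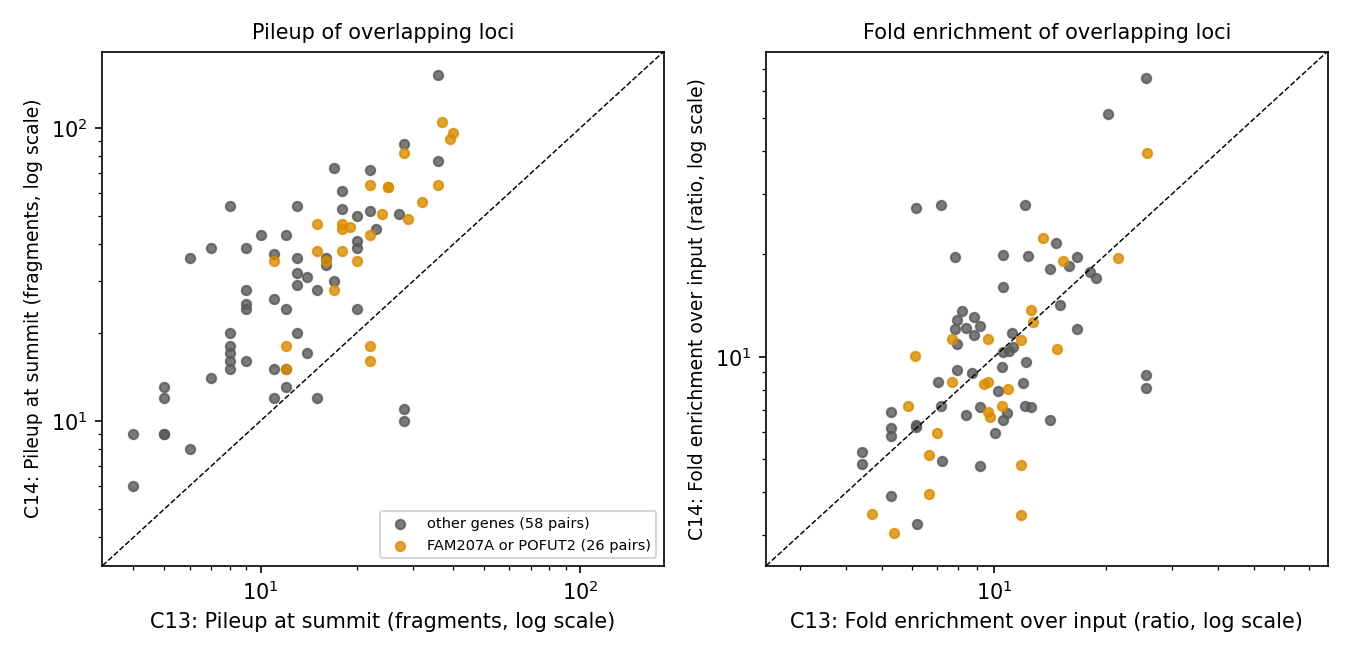
Pileup (fragments, left) and fold enrichment (ratio, right) of the 84 pairs of overlapping distal loci, C14 against C13, on log scales with the line of equality dashed and the 26 pairs at FAM207A or POFUT2 in orange. Most points lie above the line for the pileup (79 of 84), while for the fold enrichment 41 lie above and 43 below it.

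Loci without a counterpart were lower than shared ones. The median pileup was 6 in the 50 unshared C13 loci and 15 in the 70 shared ones, and 14 in the 115 unshared and 35 in the 76 shared C14 loci. Some unshared loci had a locus of the other bull close by. Within 10 kb there was one for 14 of 50 unshared C13 loci (28.0%) and for 37 of 115 unshared C14 loci (32.2%), against 32.1% and 31.9% of all unshared loci of the lists. Within 100 kb there was one for 18 (36.0%) and 65 (56.5%), against 50.3% and 50.6%.

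Many loci lay close together along the chromosomes. In C13, 48.7% of the 115 distinct intervals had another one within 10 kb, and in C14 52.0% of the 177 distinct intervals did. Loci of 1 list that were no more than 100 kb apart were joined into runs, which gave 62 runs in C13 and 79 runs in C14. Runs of 3 or more loci numbered 10 in C13 and held 55 of 120 loci (45.8%, 37.2 to 54.7). In C14 there were 19 such runs, which held 123 of 191 loci (64.4%, 57.4 to 70.8). As counted, the share in runs was higher in C14 than in C13. Fisher's exact test (p = 0.00149, adjusted p = 0.0052) took single loci of 1 library for each bull as replicates. Loci in a run are also not independent of each other, so this p is too small. No difference between the bulls is read from it. Over all loci of each list, joined in the same way, 47.6% lay in such runs in C13 and 56.0% in C14. Among the loci outside the range of 100 to 400 kb, joined by themselves, the shares were 44.8% and 49.9%, and whether the difference between the bulls was larger at 100 to 400 kb was not tested. A list with more loci also joins more of them, and the part of the larger number of C14 loci in this difference was not tested. Loci in runs had a median pileup of 16 in C13 and 25 in C14, against 7 and 10 for loci that stood alone. Of them, 21 in C13 and 38 in C14 belonged to the run near FAM207A and POFUT2, with medians of 22 and 46. The medians of the other runs went from 7 (RDH14) to 18 (NR3C1) in C13 and from 12 (ALG6 and AIMP1) to 43 (MELK) in C14.

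Of the 10 runs in C13, 8 overlapped a run of 3 or more loci in C14 (80.0%), and 8 of the 19 runs in C14 overlapped one in C13 (42.1%). Over all loci of the lists, the same held for 28 of 35 runs in C13 (80.0%) and for 29 of 57 runs in C14 (50.9%). These were the runs near FAM207A and POFUT2, BET1, ITGB8, ARFGAP3 and CYB5R3, NDUFB7, NR3C1, MELK, and MIR2404-2 and PPP2R2A. Of the others, the run near RDH14 held 1 C14 locus and that near SEMA3D held none. In C14, 3 of the 19 runs held no C13 locus, namely those near ALG6, LOC780876, and MGC134093 and PDE5A.

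The longest run lay on chromosome 1 between FAM207A, which RefSeq now names SLX9, and POFUT2, a fucosyltransferase of the endoplasmic reticulum. These genes face each other with their 3′ ends, 418517 bp apart. The run reached from 145293963 to 145450621 in C13 with 21 loci and from 145293925 to 145450629 in C14 with 38 loci. It held 17.5% of the C13 loci (11.7 to 25.3) and 19.9% of the C14 loci (14.9 to 26.1) of 100 to 400 kb. All 21 C13 loci were shared by position, as were 23 of the 38 loci in C14. The pileup ranged from 11 to 40 in C13 (median 22) and from 15 to 105 in C14 (median 46), while the local background had a median of 1.05 and 3.57. Both bulls thus had loci over the same 157 kb, and the median ratio of the listed fold enrichments of the 26 pairs there was 0.885.

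**Figure D3:**
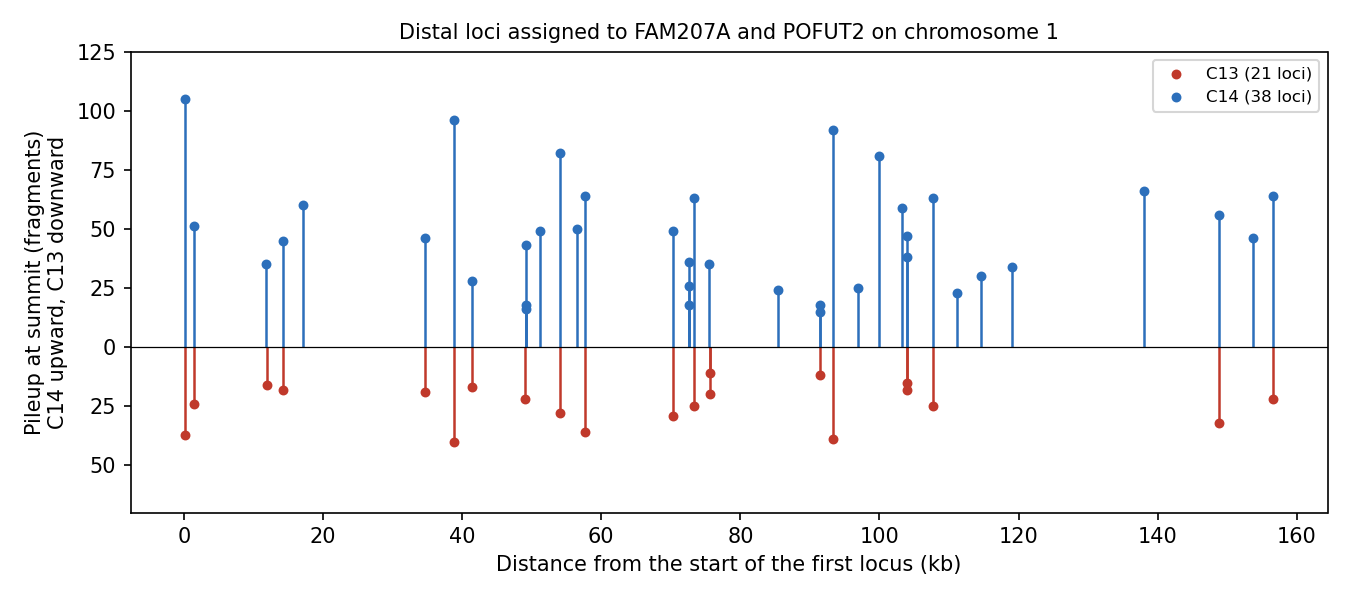
Pileup at the summit (fragments) of the distal loci assigned to FAM207A and POFUT2 against their distance from the start of the first locus (kb), with C14 (38 loci) drawn upward and C13 (21 loci) downward. Each C13 locus has a C14 locus at the same place, and the C14 loci reach 105 fragments against 40 in C13.

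The second run in number of C13 and C14 loci together lay on chromosome 8 near MIR2404-2 and PPP2R2A, a regulatory subunit of protein phosphatase 2A. It held 5 C13 loci over 118 kb and 13 C14 loci over 211 kb. At PPP2R2A, the 4 C13 loci had pileups of 6, 9, 20 and 5, and the 6 C14 loci had 8, 24, 39, 21, 19 and 8. At MIR2404-2, the only C13 locus had a pileup of 14, and the 7 C14 loci had 14, 30, 20, 9, 14, 13 and 17. Only 1 of those 7 C14 loci overlapped the C13 locus.

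The run near NR3C1, the glucocorticoid receptor, lay 233605 to 271300 bp upstream of its TSS on chromosome 7. The 5 C13 loci had pileups of 20, 16, 36, 8 and 18, and all of them overlapped a C14 locus. The 8 C14 loci had pileups of 24, 22, 50, 34, 62, 77, 16 and 61. The local background was 0.448 to 1.03 in C13 and 3.12 to 6.40 in C14, and the median fold enrichment was 11.0 in C13 and 7.56 in C14. At each of the 5 shared places near NR3C1, C14 had the higher pileup and C13 the higher fold enrichment.

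The run near MELK lay within 12 kb on chromosome 8. The 3 C13 loci had pileups of 10, 17 and 36, and the C14 loci at the same places had 43, 73 and 152. Another 2 C14 loci had pileups of 21 and 20 and no counterpart. Near ITGB8, the integrin beta 8 subunit, the C13 pileups were 4, 12, 17 and 4 and those of C14 were 22, 12, 43, 30, 6 and 18, of which 3 in each bull overlapped. Near BET1, a SNARE protein of transport between the ER and the Golgi, the C13 pileups were 15, 11 and 8 and the C14 pileups were 12, 18 and 15, so that the ranges of the bulls overlapped there. The fold enrichments at BET1 were 7.93 to 14.1 in C13 and 6.54 to 10.9 in C14.

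On chromosome 5, ARFGAP3, a GTPase activating protein of the Golgi, had pileups of 23 and 4 in C13 and of 8, 45, 20 and 12 in C14. The neighbouring CYB5R3, a cytochrome b5 reductase, had 22 and 13 in C13 and 52 and 32 in C14, at the same places. On chromosome 6, AIMP1, a scaffold of the aminoacyl-tRNA synthetase complex, had 13 and 7 in C13 and 10, 36, 12, 10 and 39 in C14. Near these 3 genes, each C13 locus but 1 of ARFGAP3 had a C14 locus over it.

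Other genes had loci in both bulls but at different places. Near NDUFB7, a subunit of respiratory complex I, the C13 pileups were 12, 8 and 4 and the C14 pileups were 13, 16 and 9, with 1 shared place. Near RPL34, a ribosomal protein gene, the pileups were 6 and 11 in C13 and 14, 19 and 13 in C14. Near GNAI1, an inhibitory G protein alpha subunit, they were 7 and 6 in C13 and 15, 12 and 28 in C14. Near ALG6, a glucosyltransferase of N-glycan assembly, they were 8 and 6 in C13 and 12, 19 and 11 in C14, and the C14 run was 45154 bp away from the nearest C13 locus. None of the loci of RPL34, GNAI1 and ALG6 overlapped between the lists.

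The remaining genes with at least 4 loci had 2 loci or fewer in at least 1 bull. CD200, a membrane glycoprotein, had pileups of 13 and 15 in C13 and 29 and 28 in C14, with both places shared and fold enrichments of 12.3 and 14.1 against 19.8 and 18.0, while the pileup over background alone was 96.4 and 111 against 56.2 and 46.1. Both C13 loci of CD200 had the lowest background of the C13 list. GRIK1, a kainate-type glutamate receptor, had 6 and 9 in C13 and 28 and 14 in C14. BRINP1 had 6 and 5 in C13 and 10 and 12 in C14, and LYRM1 had 8 and 8 in C13 and 17 and 17 in C14, each with 1 shared place. KCTD3 had 1 C13 locus and 4 C14 loci, 3 of which were summits within the single interval given above. RDH14, a retinol dehydrogenase, had pileups of 7, 6 and 20 in C13 and only 41 in C14, over the highest C13 locus.

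**Figure D4:**
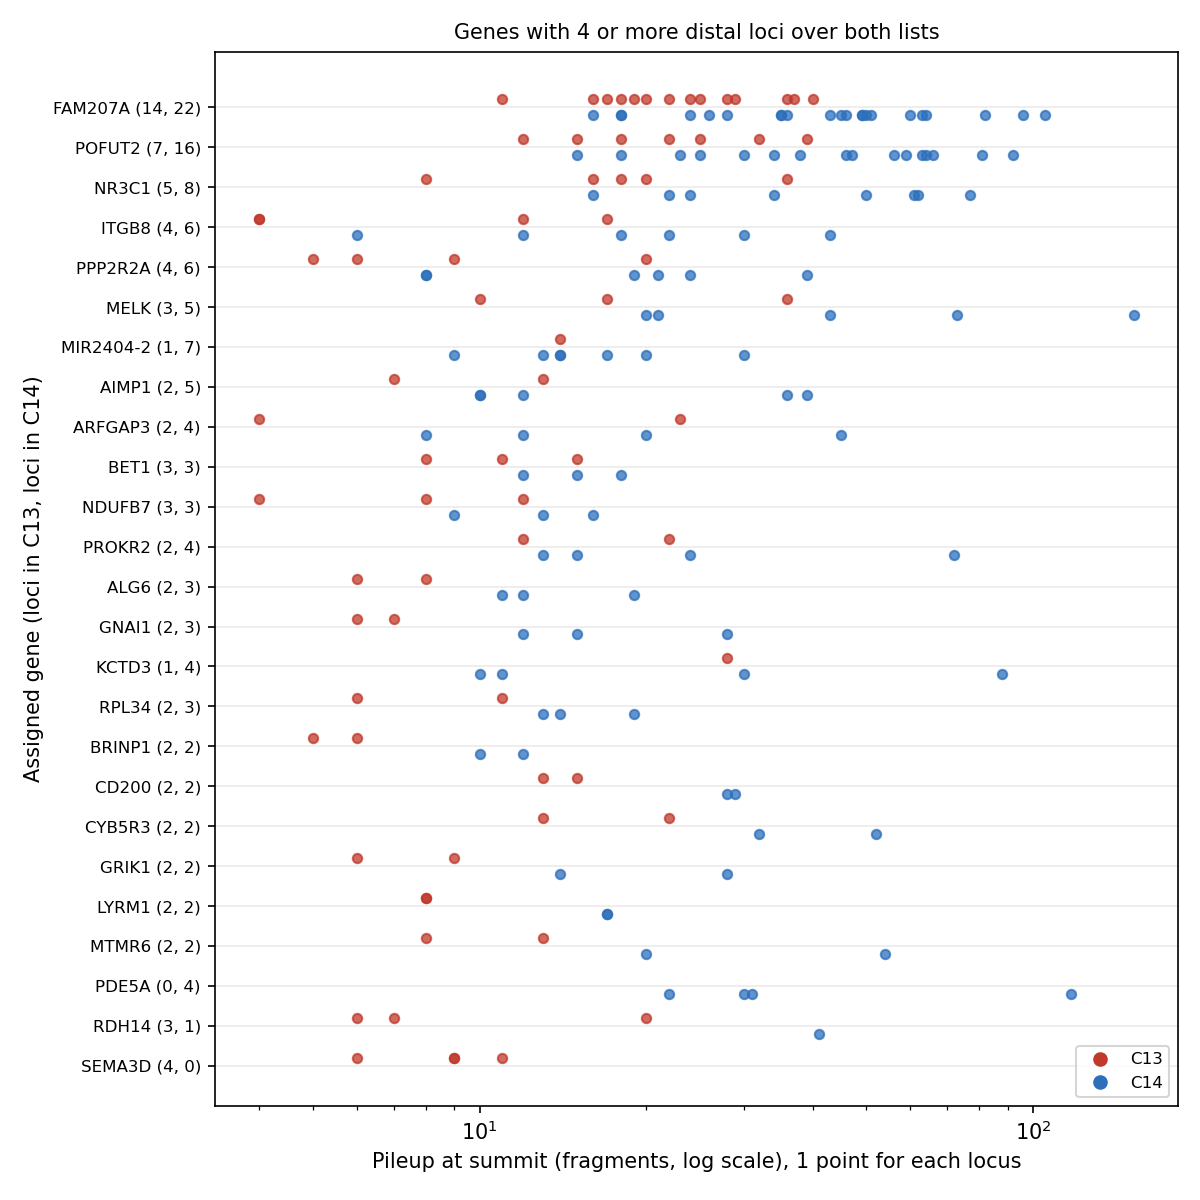
Pileup at the summit (fragments, log scale) of each distal locus of 100 to 400 kb for the 25 genes with 4 or more such loci over both bulls, with C13 in red, C14 in blue and the number of loci of each in brackets. FAM207A and POFUT2 have the most loci, PDE5A has loci only in C14 and SEMA3D only in C13.

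A few runs were seen in 1 bull only. Near SEMA3D, a secreted semaphorin of axon guidance, C13 had 4 loci on chromosome 4 from 35243465 to 35260028, with pileups of 9, 9, 6 and 11 over a background of 0.135 to 0.223. The nearest C14 locus was 1673469 bp away. Near PDE5A, the phosphodiesterase that breaks down cyclic GMP, and MGC134093, an uncharacterized gene, C14 had 5 loci on chromosome 6 from 6545718 to 6610285. Their pileups were 59 at MGC134093 and 117, 22, 30 and 31 at PDE5A, but their fold enrichments were only 2.43 to 4.01, over a local background of 5.00 to 36.1. The nearest C13 locus was 388498 bp away. Near LOC780876, listed as a MAD2-like gene, C14 had 3 loci on the same chromosome from 5320426 to 5417719, with pileups of 29, 98 and 16 and fold enrichments of 2.79 to 6.53. The nearest C13 locus was 489267 bp away.

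The last 2 runs belong to 1 stretch of 1290 kb on chromosome 6, which was singled out after its values were seen. It held 10 C14 loci of 100 to 400 kb and 5 other C14 loci, but only 1 C13 locus, near MAD2L1, a spindle checkpoint protein. The local background of the 10 C14 loci had a median of 11.0 and reached 36.1, against a median of 1.08 over all 191 C14 loci. Of the 8 C14 loci with a background over 10 fragments, 5 lay in this stretch and 3 at FAM207A or POFUT2. The background of the C13 locus was 1.63. Whether the input coverage has a part in the C14 loci of this stretch was not tested.

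**Figure D5:**
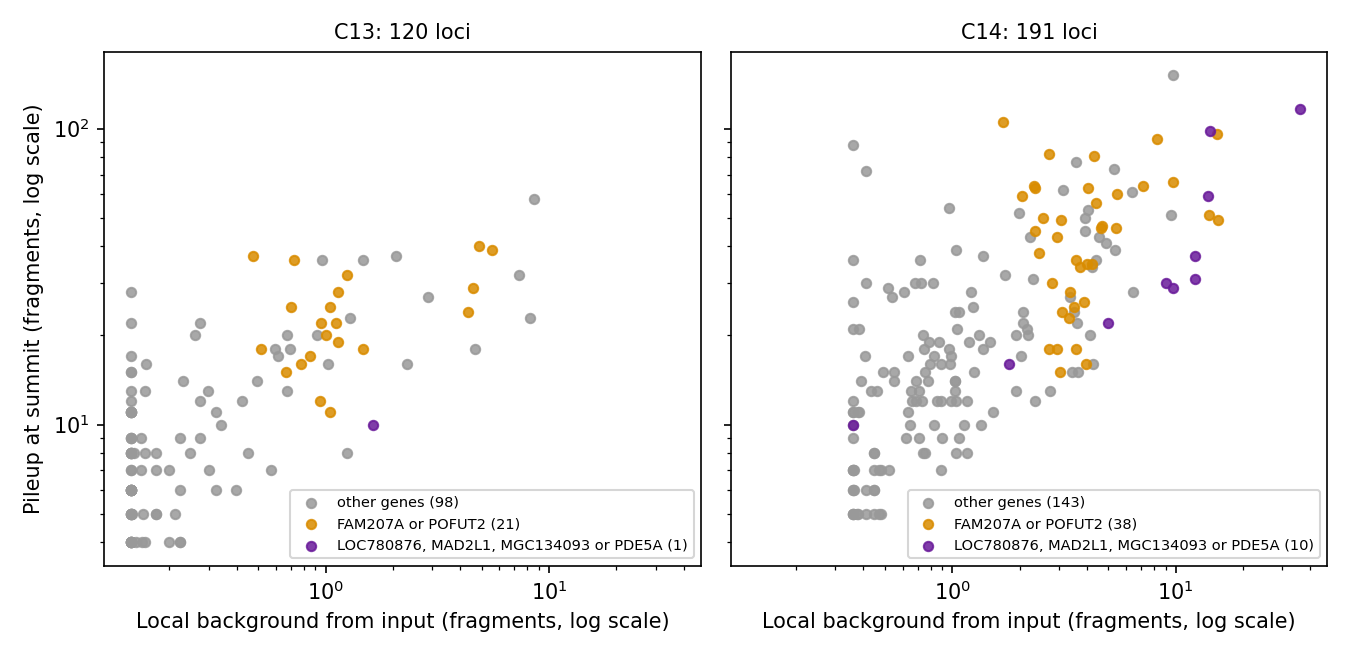
Pileup at the summit against the local background from the input (both in fragments, log scales) for the distal loci of C13 (left, 120 loci) and C14 (right, 191 loci), with FAM207A and POFUT2 in orange and the chromosome 6 genes LOC780876, MAD2L1, MGC134093 and PDE5A in purple. The C14 loci of the chromosome 6 genes mostly lie at the right, with a median background of 11.0, and the loci of the other genes mostly lie further left.

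By chromosome, chromosome 1 held the most loci in both bulls, 27 of 120 in C13 (22.5%) and 50 of 191 in C14 (26.2%). Chromosome 4 came second in C13 with 18 loci (15.0%) and held 17 in C14 (8.90%), and chromosome 8 came second in C14 with 23 loci (12.0%) and held 11 in C13 (9.17%). Chromosome 6 held 6 loci in C13 and 18 in C14. Both bulls had loci on 25 chromosomes, and 1 locus each lay on the X chromosome.

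The loci were assigned to 65 genes in C13 and 86 genes in C14, of which 39 were the same. The shared genes came to 60.0% of those in C13 and 45.3% of those in C14. Over all loci of the lists, 126 genes were common to both, a share of 67.0% in C13 and 43.3% in C14. Of the 26 genes found only in C13, 23 had a single locus, and of the 47 genes found only in C14, 42 had a single locus. Among all assigned genes, 40 of 65 in C13 and 55 of 86 in C14 had a single locus. The loci of these single-bull genes were lower by median, with a pileup of 7 in C13 against 12 for the common genes, and of 11 in C14 against 24. Some were high, such as RHOU in C13 (pileup 58). In C14, GAS2, GCSAM and PNPLA4 had pileups of 27, 30 and 21 and fold enrichments of 18.2, 17.0 and 16.2. Of the single-bull genes, 2 C13 genes and 3 C14 genes had a locus of another class or distance in the other list. The assignment to 1 bull therefore rested mostly on 1 locus for each gene, which was often but not always low.

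The assigned genes were grouped by their known roles, in lists written with the genes already known, so that the counts describe the lists and were not tested. Beside them stand the shares over all 112 assigned genes, of which 34.8% had loci in both bulls, 23.2% only in C13 and 42.0% only in C14. Of 10 genes of the Golgi, the ER, glycosylation and vesicle traffic, 5 had loci in both bulls, 3 only in C13 and 2 only in C14. Beside POFUT2, ALG6, BET1, ARFGAP3 and SEC23IP, this group held TFG (pileup 5), TM9SF3 (16) and the ribophorin-like LOC539818 (4) in C13, and in C14 C1GALT1 (5), the core 1 galactosyltransferase of O-glycans, and ST8SIA3 (19), a sialyltransferase. The group had 18 loci in C13 with a median fold enrichment of 7.93 and 29 loci in C14 with 8.10. As these values depend on the 1 added to the background, the medians are not compared between the bulls.

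Of 15 genes of receptors and their signals, 6 had loci in both bulls, 6 only in C13 and 3 only in C14. VIPR2, a receptor of vasoactive intestinal peptide, had a shared locus with a pileup of 16 and a fold enrichment of 14.7 in C13, and of 36 and 21.5 in C14, although its pileup over background alone was higher in C13 (101.3 against 50.1). In C13 only, PRLR, the prolactin receptor, had a pileup of 4, CHRM3 had 7, GRPR, a receptor of gastrin-releasing peptide, had 5, PLXNC1, a semaphorin receptor, had 4 and RGS18, a regulator of G protein signalling, had 18, but C14 had 2 loci of RGS18 of another class or distance. In C14 only, VIP had 7 and SFRP1, a secreted Wnt antagonist, had 8, beside PDE5A. Except for RGS18, PDE5A and SEMA3D, each of these genes of 1 bull had a single locus of no more than 8 fragments.

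Of 8 genes of adhesion and junctions, 4 had loci in both bulls and 4 only in C14. KIRREL3, an immunoglobulin family adhesion protein, had a shared locus with pileups of 11 in C13 and 15 in C14, and fold enrichments of 10.6 and 10.3. Its pileup over background alone was 81.6 in C13, over the lowest background of that list, and 27.3 in C14. FERMT1 had pileups of 6 and 9 in C13 and 16 in C14. In C14 only, the tight junction gene CLDN8 had 16, CADM1 had 11, CDH2, which encodes N-cadherin, had 7 and CLEC14A had 7. The CLDN8 locus lay 8612 bp from a C13 locus that was assigned to GRIK1, so C13 had a locus in that region too.

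Of 9 genes listed for the cell cycle and kinases, 4 had loci in both bulls, 2 only in C13 and 3 only in C14. This list held the phosphatase subunit PPP2R2A but not the phosphatase MTMR6. MAP2K6, a kinase upstream of p38, had a shared locus with pileups of 7 in C13 and 14 in C14. CDCA7L had 8 and 37 and TRIB2, a pseudokinase, had 4 in C13 only, although C14 had 1 locus of CDCA7L of another class or distance, while PAK5 had 15 and RPS6KC1 had 5 in C14 only. Of 6 transcription factor genes, PRDM1 alone had loci in both bulls, with pileups of 27 in C13 and 51 in C14 and fold enrichments of 7.22 and 4.96. OSR1 (5), FOXC2 (7) and TWIST1 (8) had loci in C13 and BCL6 (5) and ZHX2 (5) in C14.

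The miRNA genes numbered 2 of 65 assigned genes in C13 (3.08%) and 7 of 86 in C14 (8.14%). Over all loci of the lists, they were 3 of 188 genes in C13 (1.60%) and 8 of 291 in C14 (2.75%). MIR2285C, on chromosome 26, had a shared locus with a pileup of 11 and a fold enrichment of 10.6 in C13, and of 26 and 19.9 in C14, with a pileup over background alone of 81.6 in C13 and 72.4 in C14. In each bull, the background of this locus was the lowest of the list. Beside MIR2404-2, the other C14 loci were single and low, with pileups of 6 at MIR125B-2, 7 at MIR153-2, 6 at MIR2285I, 7 at MIR2285O-5 and 5 at MIR568. Each of these low loci was close to the lowest pileup in the C14 list of distal loci, which was 5.

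Genes with a direct role in 8-oxoG or in sperm were looked up among the assigned genes. None of 13 genes of 8-oxoG repair, 16 genes of the acrosome and sperm-egg fusion and 10 genes of the sperm nucleus and tail had a distal locus of 100 to 400 kb in either bull. Over all classes and distances, 1 of these 39 genes, IZUMO2, was in a list.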

How the data were processed

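Reads had been aligned by the authors with Isaac to the build bosTau8 and freed of duplicates in Picard. The authors then called peaks in each 8-oxoG library against its own input with MACS2 and annotated them with ChIPseeker, keeping a fold change over 2 and q under 0.05 (the submitters' processing notes name Picard, ChIPseeker and bosTau8). No libraries were pooled. The deposited pileup is a signal counted in fragments, without scaling between bulls. The fold enrichment they deposited is a ratio, and the deposited p- and q-values are on a −log10 scale. The local background was recovered here as (pileup + 1) / fold enrichment − 1. The total depth of the libraries was not analysed here.

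The lists were read in Python 3.11.15 with pandas 2.3.3. The distance recomputed from the gene coordinates equalled the listed one in 120 of 120 and 191 of 191 loci. Loci were counted by row, so that an interval with several summits counts for each of them (115 distinct intervals in C13, 177 in C14). Shares were compared with Fisher's exact test (two-sided, scipy 1.17.1) and adjusted over 7 tests by Benjamini-Hochberg (2 of them, of the side of the TSS by distance, are not reported as tests), and overlap and run functions were tested on simulated data. Current gene names came from a RefSeq table of ARS-UCD2.0, in which 110 of 112 gene numbers were found. Named genes were those with 4 or more loci over both lists, those of the 5 highest fold enrichments in each list, all miRNA genes, the grouped genes and those at the edges of the distance range. RHOU, LOC780876, MGC134093, GAS2, GCSAM and PNPLA4 or their regions are also named because of values seen, as are the comparisons described as added. The loci and gene lists were chosen with earlier results of these data known. The alternatives were stricter q, other edges, overlap rules and link distances, distinct intervals, 1 count for each run, and leaving out FAM207A and POFUT2.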

Additional observations from a re-analysis of the deposited data

How the results depend on the processing

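Of 40 tested differences under alternatives, 28 kept the direction and the side of the threshold. The difference in the share of the list (C14 minus C13, −1.32 points) became 0.0386 points at a −log10 q of at least 5 and 1.18 points with an outer edge of 500 kb. The overlap of the C13 loci against other C13 loci (1.93 points) became −1.53 points with a reciprocal overlap of 50%, −0.867 points with summits within 1 kb, −0.786 points at q under 0.01, −6.91 points without FAM207A and POFUT2 and −7.46 points with 1 count for each run, and that of the C14 loci (4.57 points) became −0.584 points without FAM207A and POFUT2. None of the overlap differences passed the test (p from 0.283 to 0.922). The deficit of upstream loci against distal loci within 100 kb passed the adjusted threshold in C14 and only the unadjusted one in C13. It is not read as a test because the definition of distal loci bears on it. Without FAM207A and POFUT2 the deficit was smaller (−4.82 points in C13, −8.33 in C14), as with 1 count for each run (−13.7 and −11.0). The unadjusted p was then over 0.05, and fewer loci were counted. The cause of these changes was not tested. The share in runs was higher in C14 by 16.7 to 21.2 points under 6 alternatives (Fisher's exact test, p from 0.000849 to 0.0153). Each of them counted the loci of a run, all from 1 library for each bull, as separate. These p-values are therefore too small, and no difference between the bulls is read from them. A count by run was not among these 6 alternatives. A further one, which kept as many C14 as C13 loci by −log10 q, is not read, since −log10 q was higher in runs (median 13.6 in C14, against 4.04 for loci alone). Genes in both lists numbered 39, which fell to 38 at q under 0.01 and to 34 where −log10 q had to reach 5. The median fold ratio of shared loci lay on either side of 1, at 0.996 to 1.04 under 3 alternatives, and was 0.455 with the pileup over the background without the added 1, an alternative chosen after seeing the data. No paired analysis was possible because there was 1 library of each kind for each bull, and for the same reason no library could be left out. The lowest pileup of a listed locus was 4 in C13 and 5 in C14, and what lies below is not in the lists.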
